A study of Homo sapiens with 12 samples.

Results

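Untreated U87 cells are the baseline of a study of microRNA blockade, and their transcriptome is described here without any treatment comparison. They were chosen by their column labels, Control-1, Control-2 and Control-3, which are 3 of the 12 samples of the series. U87 is an established human glioblastoma line. The labels give brain as its tissue, glioblastoma as its cell type and WT as its genotype, and report no added agent for these wells. The other samples received anti-seed peptide nucleic acids against miR-10b, miR-21 or both and are not analysed here. Cells were seeded at 50000 per well in 24-well plates, in DMEM with 10% serum and 1% penicillin-streptomycin, at 37 °C and 5% CO2. Polyadenylated RNA was sequenced. The labels do not say whether the 3 libraries came from separate cultures, nor whether the wells were given empty particles, so every spread below is the spread between these libraries, which may be technical. In bulk RNA, fewer cells of a type and less RNA per cell cannot be told apart. A single cell line also carries its own losses and mutations and does not stand for glioblastoma in general.

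Glioblastoma is an astrocyte-lineage tumour whose cells take up several transcriptional states. The proneural state resembles oligodendrocyte progenitors, the classical state is known for EGFR signalling, and the mesenchymal state for matrix, adhesion and wound-response genes under factors such as STAT3, CEBPB and FOSL1. Lines kept for long in serum, U87 among them, are known to lose many glial genes and to express much extracellular matrix.

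The libraries held 15330346, 17053150 and 12846676 counts in control 1, 2 and 3. Levels are given as CPM, a count rate relative to the TMM-scaled library size, when libraries are compared, and as TPM, which also divides by exon length, when genes are compared. Errors are the SD of the 3 libraries. A gene was called expressed at 1 CPM or more in all 3. That held for 13410 of 35741 genes (37.5%), which carried 99.6% of all counts. Of these, 11451 were protein-coding, 1188 were long noncoding and 616 were pseudogenes. Each of the 35741 genes had a count in some library of the series, treated ones included, so 37.5% is not a share of all annotated genes. The 11451 protein-coding genes were 57.4% of the 19951 in GENCODE 29. A count of 1 or more was seen in some control library for 29535 genes, and 6206 had no count in any of the 3. No mitochondrially encoded gene was among the genes analysed. A gene at 0 counts in all 3 libraries can still lie at up to 0.0663 CPM, the level that 3 counts over the group would give, and such limits cover counting error only. Between pairs of libraries, log2 CPM of the expressed genes correlated at 0.997 (control 1 and 2), 0.996 (1 and 3) and 0.995 (2 and 3) across 13410 genes, which are not independent replicates.

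The most abundant messages per unit of length came from the cytoskeleton, iron storage, glycolysis and the matrix. TMSB10, an actin-binding thymosin, was first at 6827 ± 526 TPM, and FTL, the ferritin light chain, followed at 6498 ± 401 TPM. Their SDs overlap, but TMSB10 was the higher of the pair in each of the 3 libraries. The actins ACTB and ACTG1 came next at 4076 ± 193 and 3982 ± 226 TPM, with overlapping SDs and ACTB the higher in each library. GAPDH stood at 3645 ± 284 TPM, the calcium-binding protein S100A6 at 3549 ± 266 TPM and fibronectin, FN1, at 3442 ± 384 TPM. The others of the 20 highest, from TGFBI at 3042 ± 233 TPM to LDHA at 2323 ± 149 TPM, included LGALS1, ENO1, TPI1, CALU, RPS12, PSAP, HSP90AB1, MMP2, S100A11 and PKM. Of the 20 highest genes of a library by TPM, 19 were shared by all 3 libraries. When the longest transcript replaced the summed exon length, 15 of the 20 remained, and TMSB10 kept rank 1.

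By counts, long matrix genes led. FN1 (ENSG00000115414, GRCh38 chr2:215360440-215436172), the fibronectin gene, had 12961, 11146 and 14105 CPM in control 1, 2 and 3. COL6A3, a collagen VI chain, had 5808, 5356 and 6321 CPM. TGFBI, a matrix protein induced by TGF-beta, had 5249, 4586 and 5397 CPM. Control 2 was the lowest library for all 3 genes. PKM, TNC, COL1A2, ENO1, FLNA, LDHA and ACTB completed the 10 highest, with means from 4327 CPM for PKM to 3066 CPM for ACTB. These 10 genes held 4.94%, 4.43% and 5.12% of the counts in control 1, 2 and 3. The 100 highest held 17.9%, 16.8% and 18.5%, and the 1000 highest 48.7%, 47.5% and 49.3%. Control 2 was thus the least concentrated library at each depth.

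**Figure D1:**
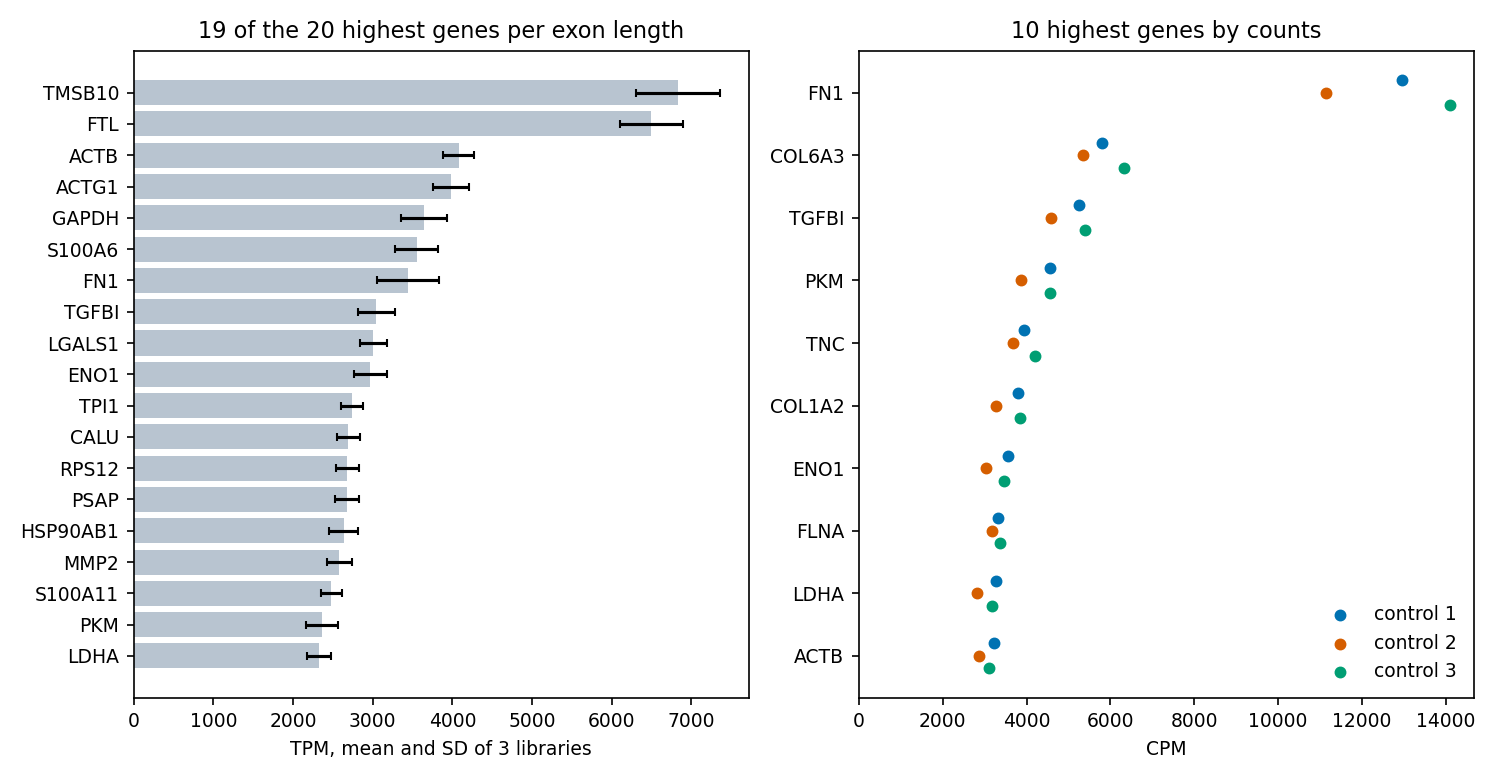
Highest genes in untreated U87 cells. Left: mean TPM with SD of 3 libraries for 19 of the 20 highest (bars start at 0); right: CPM in each library, a point per library. TMSB10 and FTL lead per exon length, and FN1 lies between 11146 and 14105 CPM, above every other gene.

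Several of these genes have a TATA box motif in front of their RefSeq start. The motif TATAA was searched on the gene's own strand in windows of 300 bases, from 250 before to 50 after each start. It was present in 22.6% of 115 promoters of the 100 highest protein-coding genes by TPM, against 8.47% of 13871 promoters of all expressed protein-coding genes and 14.8% of the 35116 promoters in the RefSeq table. TATAAA on either strand, a motif that contains TATAA when it lies on the own strand, was in 13.0%, 6.20% and 11.5% of the same sets. Of the expressed protein-coding genes 81.9% had a promoter in that table, and of the 100 highest 81%. Coverage was below 80% for all protein-coding genes together and for the genes not expressed, so no share is given for them. Of the 20 highest genes 15 had a promoter in the table; 4 of these hold TATAA on the own strand and 0 hold TATAAA. Those 4 are shown first, then the 4 mesenchymal-state genes that hold it close to the start, as 30 bases 5′ to 3′ on the gene's strand with the motif in capitals. The motif begins 30, 30, 28, 28, 27, 31, 29 and 31 bases before the start in the order printed. A further mesenchymal-state gene, EMP3, holds it 224 bases before the start and is not shown. TPI1 also has a promoter without the motif. These are letter matches and no sign of use.
TMSB10 (GRCh38.p14, chr2:84905614-84905643, plus strand): gggcgcggcgtaTATAAggctaggggcggg
S100A6 (chr1:153536004-153536033, minus strand): ggcaccgaccgcTATAAggccagtcggact
FN1 (chr2:215436079-215436108, minus strand): gggaccgtcccaTATAAgccccggctcccg
TPI1 (chr12:6867491-6867520, plus strand): cgcggcgctctaTATAAgtgggcagtggcc
CHI3L1 (chr1:203186714-203186743, minus strand): gtgggacaggtaTATAAaggaagtacaggg
ANXA1 (chr9:73151822-73151851, plus strand): cctttaaaatccTATAAaatcagaagccca
CEBPB (chr20:50190789-50190818, plus strand): acgggccgccctTATAAataaccgggctca
ANXA2 (chr15:60398000-60398029, minus strand): ggatgtggcgggTATAAaagccccacccag

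The listed genes of the mesenchymal glioblastoma state were all expressed and most were abundant. Like the other lists, this list was chosen with earlier results of these data known, so its complete expression is a description and no test. All 22 listed markers reached 1 CPM in every library, 20 of them had a mean of 100 CPM or more, and the median member had 598 TPM. Over all 35741 genes 37.5% were expressed and the median TPM was 1.15; over the 16944 protein-coding genes these were 67.6% and 13.4 TPM. TGFBI and LGALS1 (galectin-1), at 3009 ± 173 TPM, led the list. CHI3L1, the secreted chitinase-like glycoprotein YKL-40, had 1475, 1127 and 1477 CPM in control 1, 2 and 3, so control 2 lay below the others. The calpactin partner S100A10 had 1841 ± 140.2 TPM and vimentin, VIM, 1633 ± 88.3 TPM. CD44, the hyaluronan receptor, varied little, with 1413, 1434 and 1418 CPM. Among the transcription factors of the state FOSL1 stood highest at 969 ± 63.3 TPM, CEBPB had 239 ± 20.5 TPM, STAT3 66.1 ± 2.91 TPM and RUNX1 35.6 ± 3.24 TPM. The cytokine IL6, at 29.3 ± 2.22 CPM, was below 100 CPM. The list summed to 19469, 17601 and 19241 CPM in control 1, 2 and 3.

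The proneural state was represented by few genes. Of 16 listed markers 13 were analysed here, 6 were expressed (46.2%), and the median member had 0.190 TPM. Over all protein-coding genes 67.6% were expressed, with a median of 13.4 TPM. The notch ligand DLL3 had no counts, and the stem-cell factor SOX2 had 1, 0 and 0 counts. OLIG2, the factor that marks the oligodendrocyte lineage, was just above the threshold at 1.38, 2.2 and 1.25 CPM. The members with clear levels were CSPG4, the NG2 proteoglycan, at 153, 161 and 154 CPM and the adhesion molecule NCAM1 at 47.3, 53.9 and 47.6 CPM. PDGFRA had only 5.57, 4.70 and 6.58 CPM. The classical list lay between the mesenchymal and proneural lists, and near all protein-coding genes. Of its 12 members 9 were expressed (75%), with a median of 12.9 TPM. EGFR at 126 ± 7.34 TPM and NOTCH3 at 62.9 ± 1.16 TPM led it. The hedgehog receptor SMO and the homeobox gene MEOX2 had no counts. HES1, a notch target, spread most in this list, at 3.67, 2.32 and 2.04 CPM.

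**Figure D2:**
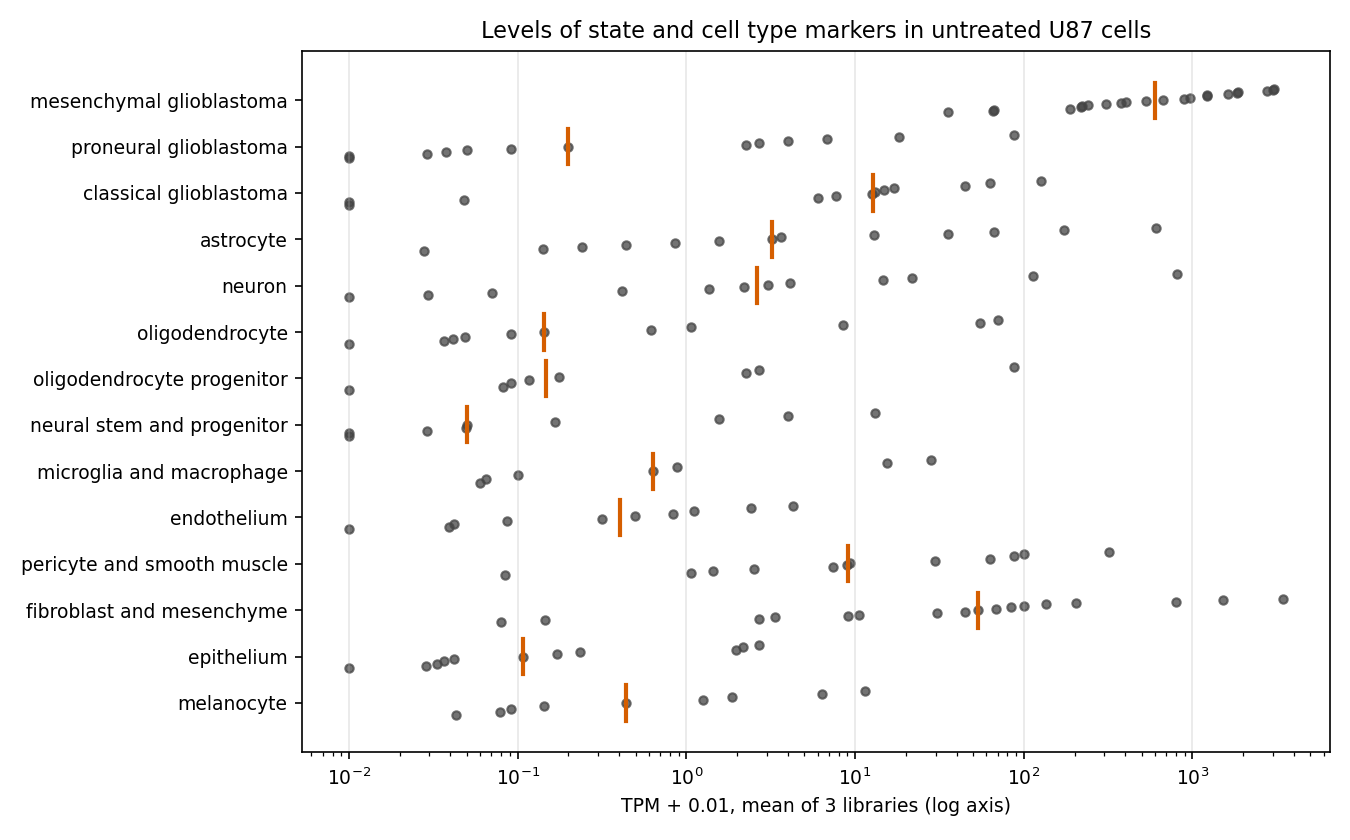
Mean TPM of 3 libraries, plus 0.01, on a log axis for every analysed member of 3 glioblastoma state lists and 11 cell type lists; each point is a gene and the vertical bar is the list median. The mesenchymal list, median 598 TPM, lies to the right of the other lists, and the epithelial and neural stem cell medians lie near 0.1 TPM or below.

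Astrocyte markers were expressed at a share of 69.2%, close to the 67.6% of all protein-coding genes, and some defining ones were at or near 0. GFAP, the astrocyte intermediate filament, had 4.79, 3.13 and 4.07 CPM. The calcium-binding protein S100B had 4, 1 and 1 counts and ALDH1L1, a folate enzyme of mature astrocytes, 0, 0 and 2 counts, while the water channel gene AQP4 was not analysed here. Other astrocyte genes were well expressed: the gap junction gene GJA1 had 609 ± 21.9 TPM, the aldolase ALDOC 173 ± 10.9 TPM and the glutamate transporter SLC1A3 66.8 ± 6.60 TPM. In all, 9 of 13 analysed astrocyte markers were expressed. The list median was 3.21 TPM.

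Mesenchymal cell markers were more prominent than any glial list. Of 17 fibroblast and mesenchyme markers 15 were expressed (88.2%), with a median of 53.4 TPM. Over all protein-coding genes 67.6% were expressed, with a median of 13.4 TPM. FN1, COL1A2 at 1525 TPM on average and COL1A1 at 795 ± 27.8 TPM led, and the factors SNAI2 at 205 ± 3.30 TPM and PRRX1 at 135 ± 1.43 TPM followed. THY1, a fibroblast surface marker, had 2, 1 and 1 counts and the matrix protein gene POSTN 4, 1 and 2 counts, so both were at the background of single reads. COL3A1, a fibrillar collagen, was among the most variable members at 71.6, 63.6 and 97.9 CPM, highest in control 3. Of 12 pericyte and smooth muscle markers 10 were expressed (83.3%). MYL9 had 321 ± 17.5 TPM, PDGFRB 100.4 ± 9.59 TPM and ACTA2 29.6 ± 0.776 TPM. TAGLN, another contractile gene, had only 7.38 ± 1.11 TPM.

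The lists of other lineages differed in how many members were expressed, beside 67.6% of all protein-coding genes. Of the neuronal list, 8 of 12 analysed genes were expressed. ENO2, the neuronal enolase, had 807 ± 4.23 TPM, the vesicle fusion gene SNAP25 114 ± 8.33 TPM, MAP2 21.9 ± 0.854 TPM and the GABA enzyme gene GAD1 14.7 ± 0.568 TPM, while the neurofilament gene NEFL had no counts. Oligodendrocyte genes were limited to 3 of 11, with UGT8 at 70.7 ± 1.54 TPM and CNP at 55.1 ± 0.530 TPM, and the myelin gene MAG at 0 counts. In the neural stem cell list 3 of 9 were expressed; NES had 13.0 ± 0.946 TPM, and MSI1 had no counts. The microglial list had 2 of 7: TMEM119 with 19.8, 13.2 and 25.1 CPM, and CSF1R with 17.6, 17 and 16.4 CPM. The pan-leukocyte gene PTPRC had 0, 5 and 3 counts and ITGAM 1, 2 and 0. Endothelial genes were expressed for 3 of 10, PECAM1 reaching 4.46, 2.67 and 4.93 CPM, with CDH5 below 1 CPM and EGFL7 at 0 counts. Epithelial genes were expressed for 2 of 11, with E-cadherin, CDH1, at 0 counts and KRT8 at 3.18 ± 0.0454 CPM. Of the melanocyte list 3 of 9 were expressed, the pigment-cell factor MITF at 17.6 ± 1.03 CPM, while tyrosinase, TYR, had 1, 0 and 0 counts.

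The listed glioma driver genes were expressed at a share near that of all protein-coding genes, and CDKN2A and CDKN2B were not expressed. Of 24 listed genes 23 were analysed and 17 were expressed (73.9%), beside 67.6% of all protein-coding genes. The receptor MET had 309 ± 14 TPM, IDH1 208 ± 7.48 TPM, the kinase CDK4 158 ± 1.29 TPM, IDH2 129 ± 5.42 TPM and EGFR 126 ± 7.34 TPM. MYC had 103 ± 4.36 TPM and the chromatin gene ATRX 41.0 ± 3.25 TPM. MDM2 had 38.9 ± 2.74 TPM, RB1 37.7 ± 3.02 TPM, PIK3CA 28.0 ± 2.24 TPM and CDK6 23.6 ± 2.23 TPM. NF1 had 17.9 ± 0.847 TPM, PIK3R1 16.7 ± 0.998 TPM, MDM4 13.3 ± 1.81 TPM and PDGFRA 2.70 ± 0.444 TPM. The telomerase gene TERT had 4, 15 and 10 counts and did not reach 1 CPM in any library. MYCN, the DNA repair gene MGMT and the cell cycle inhibitors CDKN2A and CDKN2B had no counts at all. The exons of CDK4 are overlapped on the opposite strand by other genes over 43.2% of their length, and the strand setting of the counting is not given in the sources used here.

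U87 is known to carry homozygous deletions of the CDKN2A and CDKN2C loci, which served as a check of the label. On chromosome 9, from FOCAD to DMRTA1 (chr9:20658309-22455740, coordinates of GENCODE 29 on GRCh38), 24 protein-coding genes are annotated and 6 were analysed here. FOCAD, KLHL9, CDKN2A, CDKN2B and DMRTA1 had no counts, and MTAP, the methionine salvage gene next to CDKN2A, had a single count, in control 2. Of the 10 annotated genes on either side, the 9 analysed before the stretch had 44638 counts in all, with RPS6 at 434, 397 and 402 CPM, and the 9 after it had 4414, with PLAA at 57.3, 55.5 and 57.7 CPM. On chromosome 1, FAF1, the neighbour of CDKN2C, had no counts (chr1:50437028-50960263), while RNF11 further along had 126, 129.6 and 114 CPM. CDKN2C itself is not among the genes analysed here, each of which had a count in some library of the series. Why CDKN2C is missing was not tested. The stretches were read out after the values of CDKN2A were known.

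Zeros and low counts were also frequent in a stretch of the short arm of chromosome 6. Between TRIM27 and ZBTB9 (chr6:28903002-33457548), the region of the major histocompatibility complex, 178 protein-coding genes are annotated, 66 were analysed, 10 were expressed and 19 had no counts. RPS18, a ribosomal protein that every cell needs, and TUBB, a main tubulin, had no counts in any library. HLA-C also had none, and HLA-B had 6, 7 and 3 counts. In the same stretch HLA-DRB1 had 195, 174 and 168 CPM and HLA-DRB5 154, 140.0 and 143 CPM. Just outside it, HMGA1 had 421, 424 and 366 CPM and ITPR3 144, 148 and 157 CPM. Since genes required by every cell were at 0, a count of 0 in this stretch cannot be read as absent expression; how the counting treated the region was not tested. The counts of list members given here include the analysed genes of this stretch as they were counted. Listed genes that were not analysed, in this stretch or elsewhere, are outside those counts and shares.

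**Figure D3:**
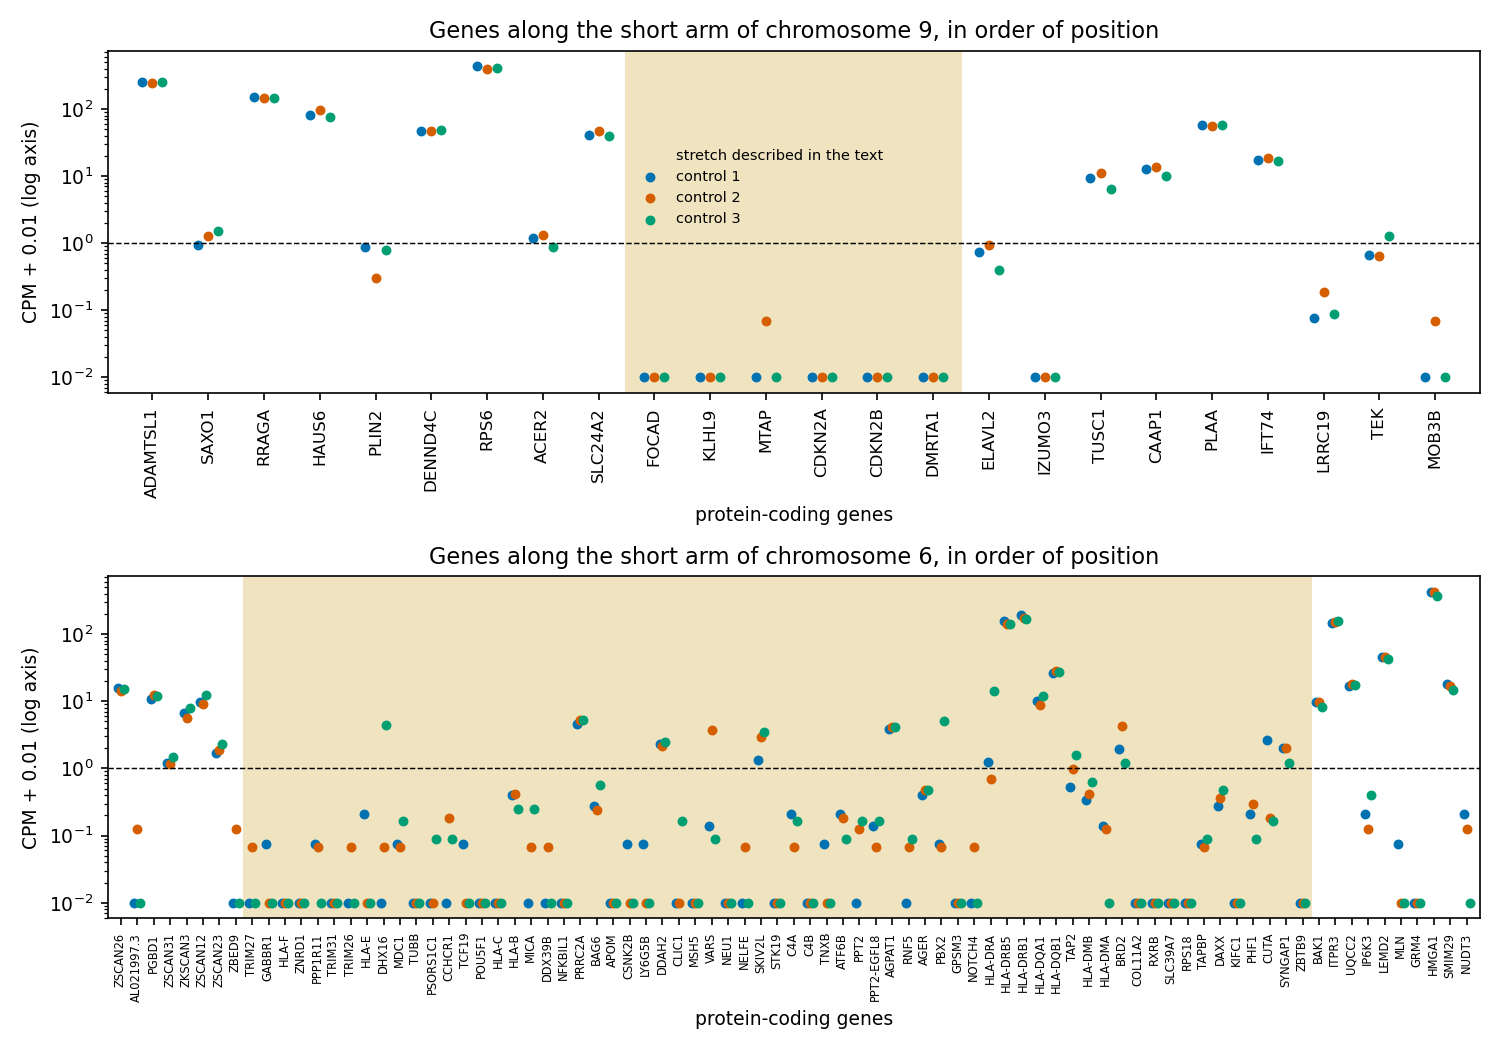
CPM plus 0.01 on a log axis for each of 3 libraries, for the protein-coding genes reported here, in order of position; the shaded stretches are FOCAD to DMRTA1 on chromosome 9 and TRIM27 to ZBTB9 on chromosome 6, with neighbours on both sides, and the dashed line marks 1 CPM. In the first stretch a single count appears, for MTAP; in the second, HLA-DRB1 and HLA-DRB5 lie between 140.0 and 195 CPM beside genes at 0.

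The microRNAs that the study targets are not themselves measured in these libraries, but their host genes and the processing machinery are. A microRNA is cut from a primary transcript by DROSHA with DGCR8, exported by XPO5, cut again by DICER1 with TARBP2, and loaded into an Argonaute that recruits TNRC6 proteins to its targets. The seed, bases 2 to 8, governs target recognition and is the part that anti-seed agents pair with, so it is shown in capitals for the targeted microRNA that the RefSeq table lists.
hsa-miR-21-5p (GRCh38.p14, chr17:59841273-59841294, plus strand): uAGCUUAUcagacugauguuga

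The miR-21 hairpin lies at the end of VMP1, an autophagy gene, which had 450.3, 428 and 379.5 CPM (284 ± 22.9 TPM), lowest in control 3. The primary transcript MIR21 was not analysed here. The miR-10b gene lies in the HOXD cluster. HOXD8 had 14.7, 16.3 and 14.3 CPM, HOXD4 3.93, 5.39 and 5.25 CPM and HOXD3 0.852, 1.16 and 0.313 CPM. Reads from HOXD4 and HOXD3 are hard to assign, because 80.5% and 62.2% of their exon bases are shared with other genes on the same strand. The processing genes were all expressed. DROSHA had 58.6 ± 3.43 TPM, DGCR8 30.5 ± 3.18, XPO5 19.1 ± 0.303, DICER1 28.0 ± 1.92 and TARBP2 37.6 ± 3.04 TPM. Among Argonautes AGO1 and AGO4 had 19.99 ± 1.14 and 18.6 ± 0.150 TPM, AGO2 13.7 ± 0.812 TPM and AGO3 9.39 ± 0.993 TPM. TNRC6A, at 72.2 ± 5.01 TPM, was well above TNRC6B at 9.20 ± 0.00966 TPM.

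Receptor tyrosine kinases were led by AXL and MET. Of 54 analysed receptors 29 were expressed (53.7%), a share below the 67.6% of all protein-coding genes. AXL, the GAS6 receptor, had 426, 420.3 and 428 CPM and was first per length at 386 ± 4.58 TPM. MET followed at 309 ± 14 TPM, then the collagen receptor DDR2 at 148 ± 6.50 TPM, EGFR at 126 ± 7.34 TPM, PDGFRB at 100.4 ± 9.59 TPM and FGFR1 at 91.2 ± 1.43 TPM. DDR2 and EGFR are separated by more than their SDs, and so are AXL and MET, while PDGFRB and FGFR1 are not and changed places in control 2. KIT, FLT1, FGFR2, NTRK2, EPHA6 and EPHB6 had no counts. Of the surface antigens considered for glioma therapy 15 of 16 were expressed (93.75%), beside 67.6% of all protein-coding genes. NT5E (CD73) led at 1488, 1493 and 1447 CPM. CD276 (B7-H3) had 216 ± 10.3 TPM, CD70 184 ± 19.9 TPM and CD274 (PD-L1) 17.7 ± 1.98 TPM.

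Collagens, integrins and matrix enzymes showed strong preference for a few members. Of 43 collagen chains 22 were expressed (51.2%), beside 67.6% of all protein-coding genes. The median chain had 1.09 TPM, below the 13.4 TPM of protein-coding genes. Over all genes, noncoding ones included, the median was 1.15 TPM. COL6A1, COL1A2, COL6A2 and COL6A3 had 1799, 1525, 1489 and 1389 TPM on average, with SDs of 88.5, 120.0, 35.0 and 111 TPM. COL5A1 had 369 ± 25.7 TPM. The 43 chains summed to 17935, 16526 and 18828 CPM in control 1, 2 and 3. Of the 30 genes whose symbols match the integrin pattern, which include integrin-binding proteins such as ITGB1BP1, 19 were expressed (63.3%). The subunits ITGB1, ITGA3 and ITGA5, which form fibronectin and laminin receptors, had 1499.7 ± 83.6, 1052 ± 32.9 and 825 ± 31.2 TPM. Of 19 matrix metalloproteinases 11 were expressed (57.9%). MMP2, a gelatinase, had 2580.3 ± 159 TPM, its activator MMP14 648 ± 30.4 TPM and stromelysin, MMP3, 496 ± 12.6 TPM, while the other gelatinase, MMP9, had 1, 0 and 0 counts and MMP11, MMP13 and MMP20 had none. In the matrix list 24 of 26 were expressed (92.3%). TNC (tenascin-C) had 1918 ± 122 TPM, SPARC 1567 ± 104 TPM and LOXL2 1059 ± 30.6 TPM.

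VEGFA, the endothelial growth factor, led the secreted signals. It had 1728, 1703 and 1821 CPM, or 568 ± 21.6 TPM, ahead of pleiotrophin, PTN, at 379 ± 4.55 TPM and VEGFB at 376 ± 20.5 TPM. TGFB1 had 260.5 ± 9.42 TPM and CSF1 203 ± 18.6 TPM. Of 32 analysed factors 27 were expressed (84.4%), beside 67.6% of all protein-coding genes, and PDGFB had no counts. Chemokines were sparse, with 6 of 26 expressed (23.1%) and 7 at 0 counts. CXCL8, the neutrophil attractant interleukin-8, was the most variable member, at 56.4, 92.9 and 47.5 CPM. CXCL2, at 31.2, 37.0 and 25.8 CPM, and CXCL3, at 6.75, 10.2 and 7.75 CPM, were also highest in control 2.

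Glycolysis, hypoxia and chaperone genes were prominent beside all protein-coding genes, of which 67.6% were expressed with a median of 13.4 TPM. All 19 glycolysis genes were expressed, 17 of them at 100 CPM or more, with a median of 362 TPM. GAPDH, ENO1 at 2969.8 ± 209.6 TPM, TPI1 at 2740 ± 140.5 TPM, PKM at 2361 ± 198 TPM, LDHA and PGK1 at 1988 ± 92.9 TPM led. ALDOA, at 47.3 ± 3.40 TPM, and LDHB, at 13.1 ± 7.40 TPM, were low, and 42.3% and 33.4% of their exon bases lie within exons of other genes on the same strand, so their levels are uncertain. Hypoxia genes were expressed for 17 of 18, with the carbonic anhydrases CA9 at 746 ± 29.9 TPM and CA12 at 626 ± 37.6 TPM, the collagen cross-linker LOX at 727 ± 43.2 TPM and the collagen hydroxylase P4HA1 at 557 ± 31.6 TPM; the oxygen sensor EGLN3 had 8, 8 and 7 counts. For CA9 38.5% of exon bases are overlapped on the opposite strand. All 18 analysed chaperone and stress genes were expressed, with HSP90AB1 at 2636 ± 184 TPM, CALR at 2188 ± 118 TPM and HSPA5 at 1997 ± 106 TPM. ASNS, the asparagine synthetase, was low at 2.23, 3.42 and 1.25 CPM, with 44.6% same-strand overlap.

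Growth and signalling genes followed. Their counts stand beside a share of 67.6% expressed over all protein-coding genes, with a median of 13.4 TPM. In the proliferation list 31 of 32 were expressed, with a median of 131 TPM. CCND1 (cyclin D1) had 467 ± 28.2 TPM, UBE2C 402 ± 23.9 TPM, the inhibitor CDKN1A (p21) 398 ± 18.1 TPM and CCNB1 354 ± 12.1 TPM, while CCND2 had 1, 0 and 0 counts. MKI67, at 129 ± 9.54 TPM, and TOP2A, at 225 ± 14.3 TPM, mark cycling cells. Immediate early genes were expressed for 22 of 23, led by FOSL1, JUN at 628 ± 21.1 TPM and the phosphatase gene DUSP1 at 258, 201 and 219 CPM. FOSB had 34.2, 25.4 and 39.5 CPM and NR4A1 12.1, 7.83 and 9.55 CPM, the widest spread in that list. Of iron and redox genes 21 of 22 were expressed; MT2A, a metallothionein, had 1436 ± 106 TPM, the peroxiredoxin PRDX5 1039 ± 48.2 TPM, and FTH1, the ferritin heavy chain, 531 ± 22.4 TPM, far under FTL, although 62.4% of FTH1 exon bases are overlapped on the opposite strand. SOD2, the mitochondrial superoxide dismutase, had 433, 588 and 468 CPM, highest in control 2. All 17 cholesterol genes were expressed, led by INSIG1 at 473 ± 35.8 TPM, and CYP51A1 was low at 3.18 ± 0.429 CPM with 79.4% same-strand overlap. Of 78 cytosolic ribosomal protein genes 73 were expressed, with RPS12 at 2681 ± 145 TPM and RPL19 at 1433 ± 93.0 TPM; RPS9 and RPL7A, also required by every cell, averaged 1.20 and 0.900 CPM, so low counts outside chromosome 6 cannot be read as low expression either.

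Among families of developmental factors, HOX (38.9%), SOX (42.9%) and PAX (42.9%) genes were expressed at shares below the 67.6% of all protein-coding genes. Over all genes, noncoding ones included, the share was 37.5%. The shares were 23.1% for POU, 50% for GATA, 66.7% for RUNX and 100% for TEAD genes, all small families. Of 36 HOX genes 14 were expressed, and the highest were HOXB2 at 40.1 ± 2.96 TPM and HOXD8 at 26.9 ± 2.22 TPM, then HOXD4, HOXB3 at 11.8 ± 0.495 TPM and HOXC6 at 10.5 ± 0.864 TPM. HOXA13, HOXC11, HOXC12 and HOXC13 had no counts. Of 14 SOX genes 6 were expressed, with SOX12 at 31.0 ± 2.78 TPM and SOX9 at 13.0 ± 0.820 TPM. PAX8, PAX3 and PAX6 were expressed at 15.2, 10.8 and 17.7 CPM and PAX4, PAX7 and PAX9 had no counts. All 4 TEAD factors, the DNA-binding partners of YAP, were expressed, TEAD1 at 115 ± 5.09 TPM. POU2F2, an octamer-binding factor known from B cells, had 112, 138 and 112 CPM. Keratins were expressed for 6 of 36, with KRT10 at 57.0 ± 8.54 TPM, and none of 6 MAGEA genes reached 1 CPM in all libraries.

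Long noncoding RNAs made up 1.44% of counts. NEAT1, the paraspeckle RNA, had 1457, 1334 and 1534 CPM, NORAD 739, 739 and 751 CPM, and MALAT1 523, 547 and 607 CPM. Per length NORAD, at 651 ± 12 TPM, exceeded NEAT1 and MALAT1, both at 296 TPM with SDs of 19.1 and 25.1. AC006058.1 at 298 ± 7.50 CPM, LUCAT1 at 258 ± 18.9 CPM, SNHG29 at 200.1 ± 8.13 CPM, FGD5-AS1 at 199.6 ± 4.38 CPM, MIR100HG at 181 ± 5.69 CPM, TUG1 at 179 ± 9.25 CPM and EBLN3P at 162 ± 6.60 CPM completed the 10 highest. HOTAIR had no counts. In the antigen presentation and interferon list 10 of 18 analysed genes were expressed (55.6%), beside 67.6% of all protein-coding genes. That count includes HLA genes of the chromosome 6 stretch. The invariant chain CD74 had 433, 381 and 409 CPM and B2M 278, 233 and 251 CPM.

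The 3 libraries were close to each other. Among 10400 genes with a mean of 100 counts or more, the median coefficient of variation (CV) of CPM was 5.40%, against 3.88% from counting alone, and 84.5% of these genes had a CV under 10%. The gap between the median CV and the Poisson value widened with depth. The median of a CV from 3 libraries tends to lie below the true CV, so this does not show that the excess itself grew. From 100 to 300 counts the median CV was 8.0% beside a Poisson value of 7.36%, and at 10000 counts or more it was 5.55% beside 0.801%. edgeR's common biological coefficient of variation was 0.0546. The chi-square per degree of freedom between pairs was 4.72, 4.11 and 6.90, all above the value near 1 that repeats of a library would give, so they were counted as 3 libraries. Controls 2 and 3 differed most, with a median absolute log2 difference of 0.0997, against 0.0776 for controls 1 and 2. Of the 10400 genes, 94 ranged by 1.5-fold or more and 11 by 2-fold or more.

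The 10 genes with the largest excess of spread over counting, among genes with a mean of 100 counts or more, are given here. EIF3C, a translation initiation subunit with a near-identical neighbour copy, had 895, 233 and 207 counts, or 58.7, 13.5 and 16.2 CPM, so control 1 stood alone. LDHB had 168, 192 and 37 counts and TMA7, a ribosome-associated gene, 298, 306 and 70, both low in control 3. BMI1, a polycomb gene, had 444, 629 and 206 counts and NDUFC2, a respiratory complex subunit, 126, 133 and 45. FAM3C2 had 119, 252 and 278 counts, MRPS36 142, 388 and 305, RAD17 178, 74 and 107, ABCC1 75, 171 and 68, and AP2A2 165, 109 and 70. Among the 50 widest genes control 3 was the library apart in 27, and lower than the others in 25 of those. Exons of another gene on the same strand covered over 10% of exon bases in 3 of the 10 widest genes and 11 of the 50 widest, beside 4.59% of the 10387 annotated genes with 100 counts or more; the part of overlap in the spread was not tested. The 5 genes furthest below the counting value, a measure that favours genes with few counts and does not give the lowest CVs, were TRPC4, at 6.72 ± 0.0959 CPM, PIGCP1, MCPH1-AS1, UBOX5 and B3GNT10.

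**Figure D4:**
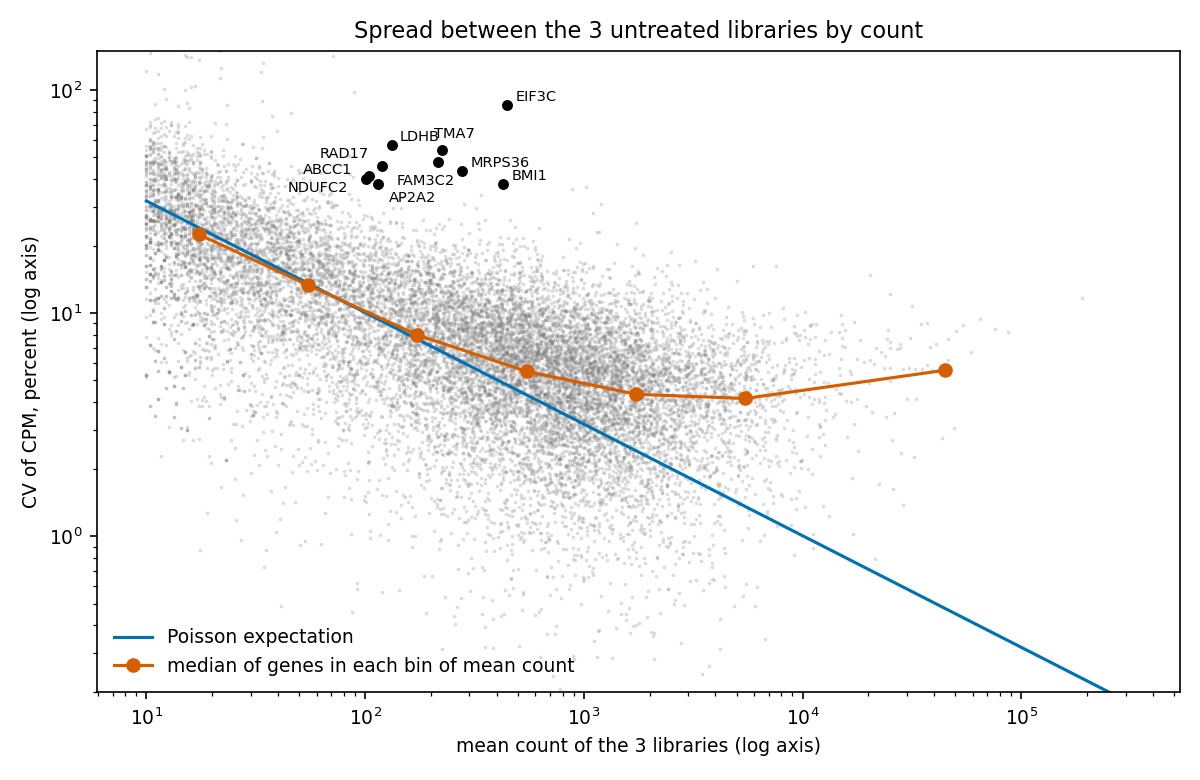
CV of CPM over 3 libraries against mean count, both on log axes, a grey point per gene with a mean of 10 counts or more; the blue line is the Poisson expectation, orange points are medians by bin, and black points are the 10 genes with the largest excess. Medians lie near the line up to about 300 counts, though the median of a CV from 3 libraries tends to lie below the true CV. At higher counts the medians themselves stay at about 4% to 6%, while the line falls further below them.

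Genes that share many exon bases on the same strand had low levels. Of protein-coding genes with no such overlap 67.9% of 14253 were expressed with a median of 14.8 TPM. With over 0 to 10% shared these were 77.0% and 19.5 TPM, and with over 10 to 30% they were 73.2% and 10.1 TPM, so the share expressed did not fall steadily with overlap. Among those with over 30% of exon bases shared, 35.9% of 685 were expressed, and the median was 0.578 TPM. Among these fall CYP51A1, ASNS, LDHB and ALDOA, all named above. Library deviations followed transcript composition. Over 9836 protein-coding genes with 100 counts or more, the lowest of 10 equal bins by GC content deviated from their own mean by a median log2 of 0.08 in control 2 and -0.06 in control 3. In the highest GC bin the medians were 0.03 in control 1, 0.01 in control 2 and -0.04 in control 3. In the bin with the shortest transcripts they were 0.05 in control 1 and -0.05 in control 3, and in the longest bin -0.04 in control 1 and 0.02 in control 2. These shifts are deviations from a gene's mean over 3 libraries, so they are not on the scale of the differences between pairs of libraries. Their part in the spread of single genes was not tested.

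**Figure D5:**
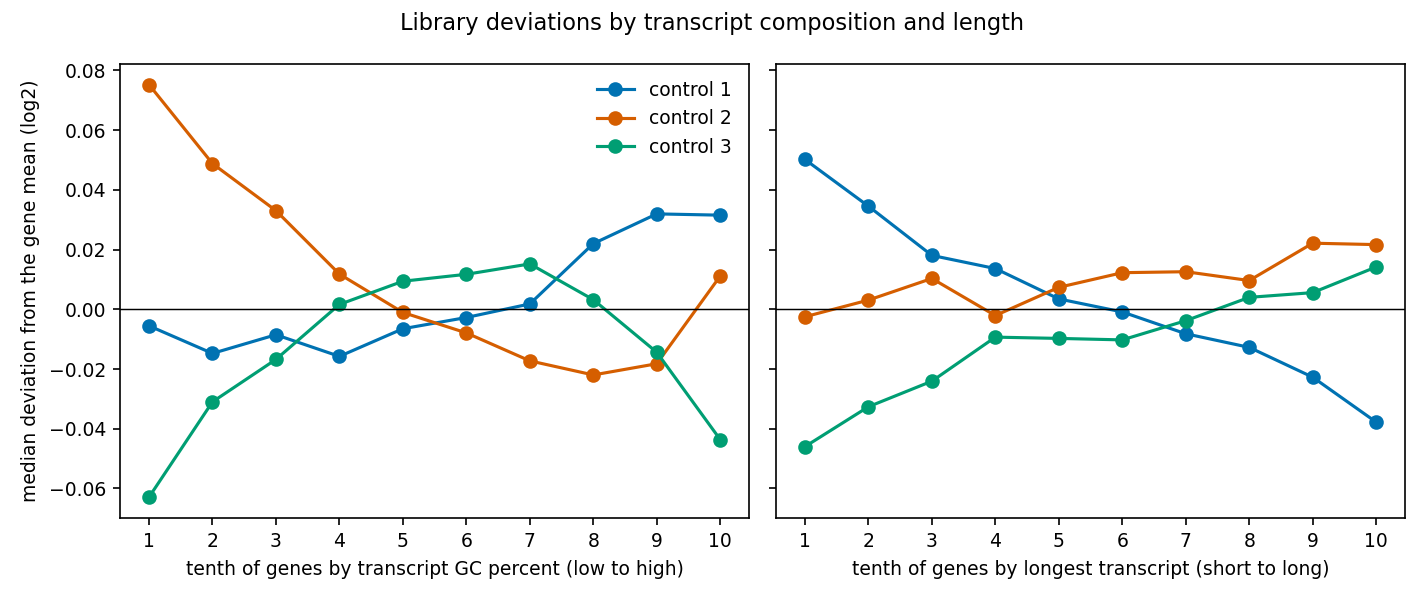
Median deviation of each library from the gene's mean over 3 libraries (log2) in 10 equal bins of 9836 protein-coding genes by transcript GC content (left) and by longest transcript (right). Control 2 is highest and control 3 lowest in the lowest GC bin, and control 1 declines from short to long transcripts.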

How the data were processed

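The values used are whole-number read counts per gene, which the authors deposited as a table of 35741 Ensembl genes by 12 samples. The 3 control columns were used, matched to samples by their titles, and the other 9 entered only the alternative TMM scaling. HISAT2 2.1.0, SAMtools 1.7, HTSeq 0.11.0 and hg38 are named in the submitters' processing notes. Per the labels' protocols RNA was extracted with the mirVana kit and libraries were made with TruSeq Stranded mRNA. Neither the strand setting of the counting nor the annotation release is known here. Counts were scaled to CPM with TMM factors from edgeR 4.0.16 (R 4.3.3). TPM used summed exon lengths of GENCODE 29, which matched 34564 of 35741 genes. Common dispersion came from estimateDisp on genes passing filterByExpr at 10 counts. DESeq2 1.42.0 gave alternative size factors. Excess spread is the squared CV minus the Poisson value. Limits for genes at 0 counts cover counting error only; the SDs are the spread between libraries. The spread step was tested on simulated data. Motif and seed sequences are from RefSeq, GRCh38.p14.

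With 1 group there is no contrast and no p-value. The members and lists were chosen with earlier results of these data known. Named genes are the 20 highest by TPM, 10 highest by CPM, 10 highest long noncoding RNAs, the 10 widest and 5 narrowest by excess spread, up to 6 members of each list by highest TPM with those at 0 counts, family members at 1 CPM or more, the 3 most variable expressed members of each list, and every driver and microRNA gene. Genes of the chromosome stretches and other list members at or near 0 or beyond these ranks were chosen after their values were seen. Gene names are shared by 391 entries and 12 read as dates, so genes were joined by identifier. Some listed genes entered the counts and medians but are not reported here by name.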

Additional observations from a re-analysis of the deposited data

How the results depend on the processing

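The expressed genes numbered 10675 at 5 CPM and 14797 at 0.5 CPM, and 13410 to 13450 under library totals, DESeq2 size factors and TMM over 12 libraries. Leaving out a library in turn gave 13560 to 13585 expressed genes, a share of 4.69% to 5.03% for the 10 highest, a median CV of 3.89% to 4.97%, and a common biological coefficient of variation of 0.0451 (without control 3) to 0.0660 (without control 1). A mean of 10 counts in place of 100 gave a median CV of 7.04%, since shallower genes enter. All 22 mesenchymal markers, listed with earlier results of these data known, stayed expressed under every threshold, scaling and omission run. At 5 CPM 9 smaller lists changed by over 1.5 times, among them 3 proneural, 5 astrocyte, 4 neuronal, 1 endothelial, 0 epithelial and 5 HOX genes left. With the longest transcript as length, PKM ranked 2 rather than 19, so ranks within the 20 highest depend on the length model. No paired analysis was possible because 1 group was described and no result comes from a test. Depth limits genes under 100 counts. There the median CV was 22.6% from 10 to 30 counts and 13.4% from 30 to 100 counts. The Poisson values were 24.9% and 13.8%. The median of a CV from 3 libraries tends to lie below the true CV, so these values cannot show that excess spread was absent.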

Other observations

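Inside the chromosome 6 stretch, where 10 of 66 analysed genes were expressed, some genes had counts in mainly 1 library, a pattern picked out after the values were seen. HLA-DRA, a class II chain, had 19, 12 and 183 counts in control 1, 2 and 3. DHX16, an RNA helicase, had 0, 1 and 57, and PBX2, a homeobox gene, 1, 1 and 65. VARS, the valyl-tRNA synthetase, had 2, 63 and 1, and CUTA had 40, 3 and 2. HLA-DRB1, in the same stretch, had 2972, 2999 and 2148 counts with no such imbalance. No explanation was tested.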
